A study of Mus musculus with 15 samples.

Results

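The Schlafen genes of the mouse form a family that is expressed mainly in cells of the immune system. Their members Slfn1, Slfn2, Slfn3, Slfn4, Slfn5, Slfn8 and Slfn9 were followed here in cardiac and hepatic transplants. All probes whose transcript accession belongs to 1 of these genes in RefSeq were taken, which gave 7 genes of 18217 with a symbol and 8 probes of 41174 on the array. Each gene has 1 probe except Slfn5, which has 2 and was read from the brighter of them.

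RNA of frozen tissue from male mice was hybridised to 15 arrays read in 1 colour, with 3 arrays in each of 5 groups. Cardiac allografts were hearts of C57BL/10 mice (B10, H-2b) placed in the abdomen of CBA recipients (H-2k) and taken on postoperative day 5 (POD5). Hepatic allografts were livers of B10.BR mice (H-2k) placed in B10.D2 recipients (H-2d) and taken at POD5 or POD8. The labels call the cardiac and hepatic controls normal tissue and the study's results call them isografts, so they are named controls here, and their strain and the age of the mice are not given in the sources used here. Donor and recipient strains differ between the organs, so organ and strain combination cannot be told apart. The grafts were sampled whole, so more cells of a type and more RNA per cell cannot be told apart. The methods mention 3 mice per time point in their section on quantitative PCR, but nothing in the labels ties the 3 arrays of a group to separate animals, so the P-values measure the spread between arrays.

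Schlafen proteins share an N-terminal core that in several members cleaves or binds transfer RNA. They are grouped by length into short forms (Slfn1, Slfn2), intermediate forms (Slfn3, Slfn4) and long forms with a helicase-like C-terminal part (Slfn5, Slfn8, Slfn9 and Slfn14). Several are known to be induced by type I interferon in lymphoid and myeloid cells. Slfn2 is best known for keeping resting T cells and monocytes quiescent, and Slfn4 as a gene of myeloid cells.

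The family lies in 1 cluster on chromosome 11, in the order Slfn5, Slfn9, Slfn8, Slfn10-ps, Slfn2, Slfn1, Slfn4, Slfn3 and Slfn14 in RefSeq (GRCm38.p6). The 250 bases before each RefSeq start were searched on both strands for the interferon-stimulated response element, spelled GAAANNGAAA, and the gamma-activated sequence, spelled TTCNNNGAA. The first motif was present in Slfn5, Slfn8 and Slfn9, and absent from the windows of Slfn1, Slfn2, Slfn3, Slfn4 and also Slfn14, a long form outside the 7 genes. It occurs in 2.98% of all 32851 promoter windows of this length. The second motif, which occurs in 7.02% of all windows, had no match in the windows of the 7 genes or of Slfn14. For reference, 7 of the 15 genes with a promoter window in a list of interferon-stimulated genes used below (Ifit1, Isg15 and others) held the first motif and 4 held the second. The windows of the 3 genes with a match are shown for that site, 5′ to 3′ on the gene's strand, with the match in capitals. They are RefSeq sequences of chr11:82951852-82952101 (plus strand) for Slfn5, chr11:82991831-82992080 (minus strand) for Slfn9 and chr11:83020811-83021060 (minus strand) for Slfn8.

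Slfn5: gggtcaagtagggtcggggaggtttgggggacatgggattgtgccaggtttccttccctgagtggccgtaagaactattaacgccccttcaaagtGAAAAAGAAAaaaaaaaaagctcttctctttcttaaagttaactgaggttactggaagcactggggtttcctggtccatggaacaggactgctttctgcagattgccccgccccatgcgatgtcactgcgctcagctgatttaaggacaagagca

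Slfn9: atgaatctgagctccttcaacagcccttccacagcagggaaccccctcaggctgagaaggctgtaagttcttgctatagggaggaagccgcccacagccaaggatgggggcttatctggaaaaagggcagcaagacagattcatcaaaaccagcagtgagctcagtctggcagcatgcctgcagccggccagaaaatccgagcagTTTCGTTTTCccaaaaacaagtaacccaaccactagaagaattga

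Slfn8: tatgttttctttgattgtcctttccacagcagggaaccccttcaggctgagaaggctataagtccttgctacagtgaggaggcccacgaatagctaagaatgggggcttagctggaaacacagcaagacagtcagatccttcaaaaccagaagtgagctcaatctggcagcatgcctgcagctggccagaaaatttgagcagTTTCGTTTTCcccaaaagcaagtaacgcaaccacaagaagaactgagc

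The match in Slfn5 begins 155 bases before the start. In the neighbours Slfn9 and Slfn8 it is the same 10-letter site on the opposite strand, beginning 45 and 48 bases before the start, and their windows are identical at 205 of 255 aligned positions (80.4%). The other pairs of the 7 windows were identical at 44.5% to 51.9% of aligned positions. Slfn8 also has another RefSeq start, and the same site begins 136 bases before that one. The window of that start is not shown and was not aligned. A match is a description of these letters and shows no binding. Slfn8 and Slfn9 are close paralogs, as are Slfn3 and Slfn4. The probe sequences were not used here, so whether a probe also captured a paralog's transcript was not tested.

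Signals below are log2 processed signals after quantile normalization over the 15 arrays, and they can be compared between arrays for 1 probe but not between probes. A probe counts as well above background where the scanner software gave it that mark on an array. Between 56.2% and 70.5% of probes were well above background on each cardiac array, 58.2% to 66.3% on the hepatic allografts and 52.5% to 57.0% on the hepatic controls. The 75th percentile of the unnormalized signal was 1021 to 1247 on the cardiac controls, 394 to 710 on the cardiac allografts, 338 to 478 on all 6 hepatic allografts and 92.1 to 226 on the hepatic controls. The brightness of the arrays therefore differed between groups before normalization. The 3 cardiac controls were on a slide of their own and the 3 cardiac allografts on another, so for the hearts the slide cannot be told apart from the group. No slide held both a POD5 hepatic allograft and a hepatic control. Summed signals of 5 cardiomyocyte markers were 287040 to 598470 on the cardiac arrays and 430 to 1675 on the hepatic arrays, where Myh6 and Ryr2 were not well above background on any array and Tnni3 and Actc1 were on all. Alb was well above background on all hepatic arrays and on no cardiac array.

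**Figure D1:**
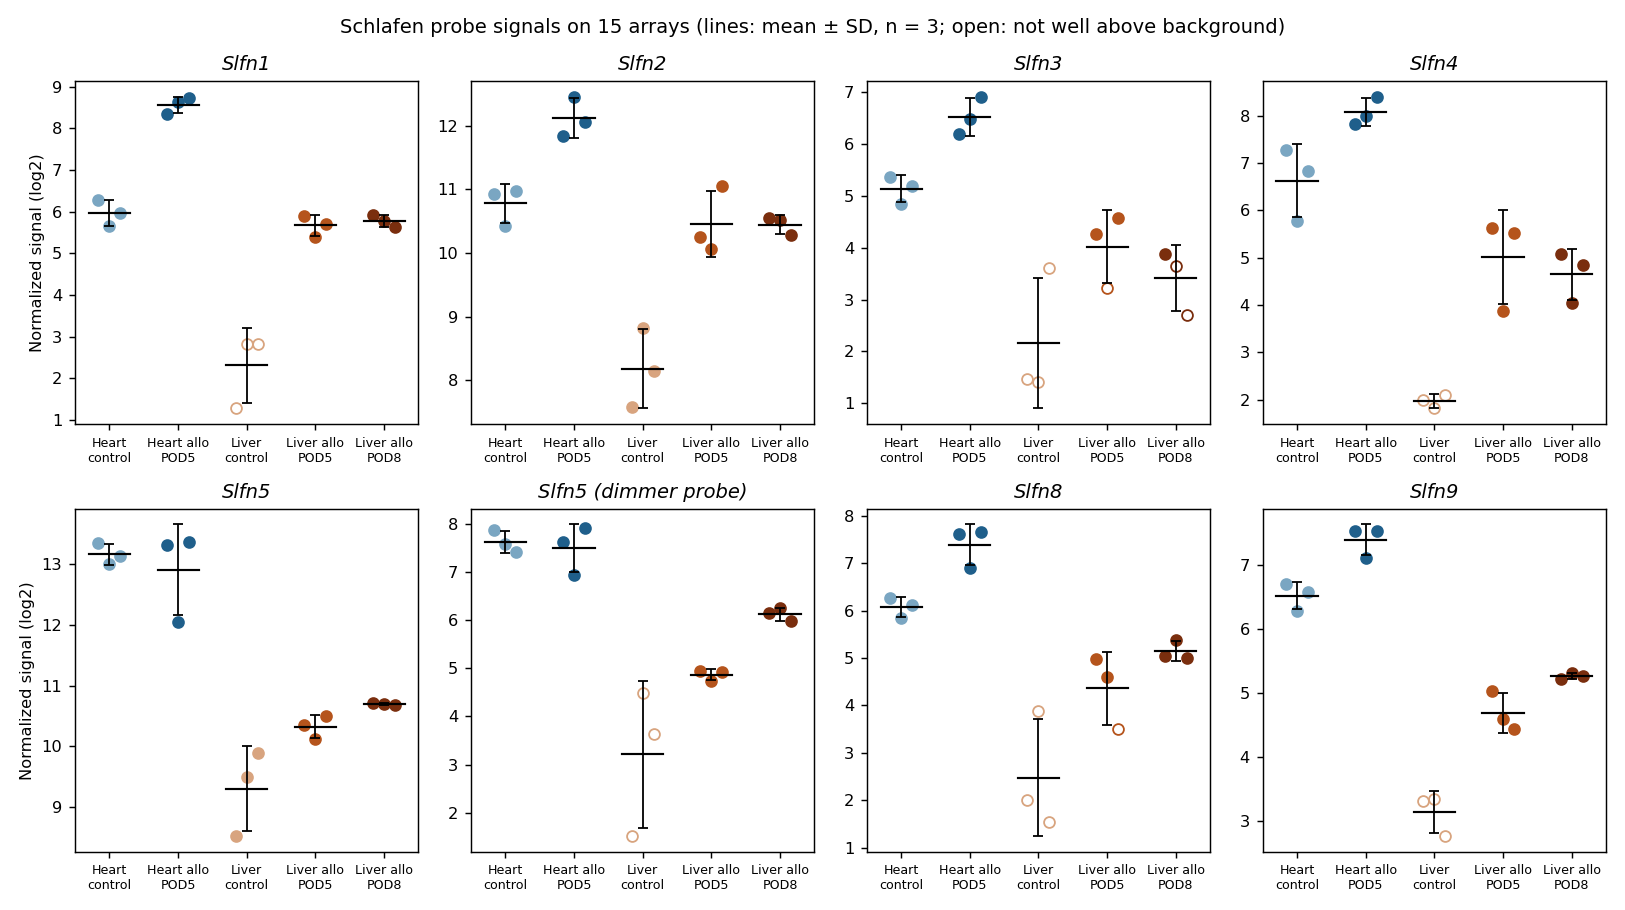
Normalized log2 signal of the 8 Schlafen probes on each of 15 arrays by group, with filled points well above background and open points not, and lines for the mean ± SD of 3 arrays. Cardiac allografts lay above cardiac controls for every probe except the 2 of Slfn5, and on the hepatic controls the signals of Slfn1, Slfn3, Slfn4, Slfn8, Slfn9 and the dimmer Slfn5 probe were not well above background.

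In the heart, short, intermediate and long members were higher in allografts than in controls, and Slfn5 was not. Slfn1, a short member described as a brake on T cell growth, rose the most of the 7, by 6.05-fold. Slfn2, Slfn3 and Slfn8 rose 2.50- to 2.62-fold and Slfn9 rose 1.84-fold. Of the 7 genes, 5 passed the test upwards (limma, Benjamini-Hochberg adjusted P under 0.05), where 15.6% of all 41025 probes tested were higher and 32% changed in either direction. The median difference of the 7 genes was 1.34 on the log2 scale, against 0.02 over all probes. All 7 genes were well above background on all 6 cardiac arrays.

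Slfn1 signals were 8.35, 8.63 and 8.72 in the 3 cardiac allografts and 6.27, 5.66 and 5.98 in the 3 controls. The groups were far apart compared with their spread, with a difference of 2.60 ± 0.19 (SE, n = 3 and 3, limma adjusted P = 0.00131). Slfn2, the quiescence regulator, read 11.84, 12.45 and 12.05 in allografts and 10.92, 10.43 and 10.98 in controls. All 3 allografts again lay above all 3 controls, and the difference was 1.34 ± 0.23 (SE, limma adjusted P = 0.0108).

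Among the intermediate forms, Slfn3, which is linked to the differentiation of gut epithelium, read 6.19, 6.48 and 6.92 in allografts and 5.37, 4.85 and 5.20 in controls. The groups did not overlap, and the difference was 1.39 ± 0.24 (SE, limma adjusted P = 0.0108). Slfn4 read 7.83, 8.0 and 8.41 in allografts and 7.29, 5.77 and 6.84 in controls. Its groups did not overlap either, but the controls were spread widely and the difference of 1.44 ± 0.42 missed the threshold (SE, limma adjusted P = 0.0522), which it passed without control replicate 1 (1.77, limma adjusted P = 0.0471).

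Of the long forms, Slfn8 read 7.62, 6.90 and 7.66 in allografts and 6.26, 5.84 and 6.11 in controls, a difference of 1.32 ± 0.25 (SE, limma adjusted P = 0.0144). Slfn9 read 7.53, 7.12 and 7.54 in allografts and 6.70, 6.29 and 6.57 in controls, a difference of 0.88 ± 0.18 (SE, limma adjusted P = 0.0174). Both genes were higher on all 3 allografts, with replicate 2 the lowest. Their calls lay near the threshold: both were lost without control replicate 2 (limma adjusted P = 0.0509 for Slfn8 and 0.0514 for Slfn9) or 3 (0.054 and 0.0599), and that of Slfn9 also without allograft replicate 1 (0.0509) or 3 (0.0593). Slfn5, a nuclear long form, read 13.31, 12.04 and 13.36 in allografts and 13.35, 13.0 and 13.13 in controls. Allograft replicate 2 was more than 1 log2 unit below the other allografts and the groups overlapped. The difference of -0.25 ± 0.39 had a 95% interval of -1.24 to 0.73 (SE, limma adjusted P = 0.661), and it was 0.18 without that array. The dimmer Slfn5 probe gave -0.13 ± 0.28 (SE, limma adjusted P = 0.762), with the same array lowest.

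Groups of 6 of the 7 genes did not overlap in the heart, where 29.1% of all probes were higher and 54.6% differed in either direction without overlap. The smallest two-sided P-value that an exact permutation test gives for 3 arrays against 3 is 0.1, which each of those 6 genes reached. The size of these differences depended on the scaling of the arrays. Without normalization between arrays the median of all probes was itself -0.46, and the differences were 1.76 for Slfn1, 0.71 for Slfn3, 0.57 for Slfn4, 0.49 for Slfn8, 0.34 for Slfn2, 0.01 for Slfn9 and -1.18 for Slfn5. All 7 kept the sign they had after normalization, and all except Slfn5 remained above the median of all probes, but only Slfn1 still passed the test upwards. With each array scaled to its 75th percentile the median of all probes was 0.47 and 6 of the 7 genes passed. The share of all probes passing under these scalings is not given here.

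**Figure D2:**
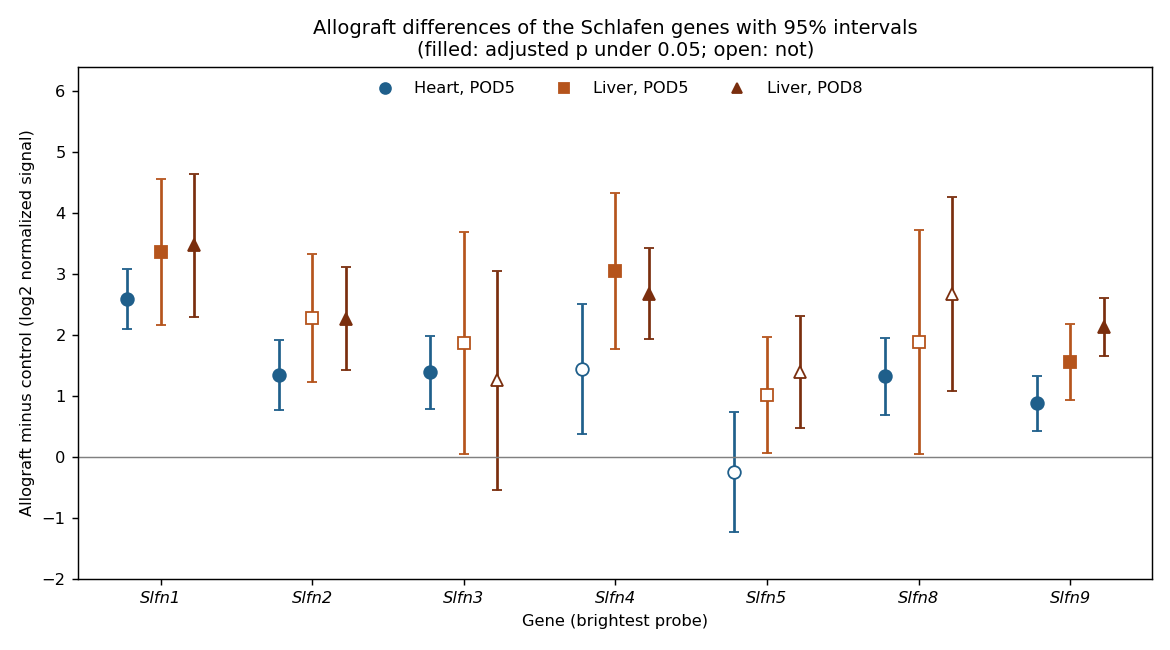
Log2 difference of each Schlafen gene between allografts and controls with its 95% interval, for hearts at POD5, livers at POD5 and livers at POD8 (n = 3 and 3 arrays each). Filled symbols had a limma adjusted P under 0.05, and the widest intervals belong to Slfn3 and Slfn8 in the liver, where no control array was well above background.

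In the liver at POD5, Slfn1, Slfn4 and Slfn9 were higher in allografts than in controls, and the 4 other genes had positive differences that missed the threshold. The 3 genes that passed were well above background on all 3 allografts and on none of the 3 controls, so their fold changes are given as approximate lower bounds: at least 2.54-fold for Slfn1, at least 1.61-fold for Slfn4 and at least 1.28-fold for Slfn9. A bound sets the allograft mean against the lowest signal of any probe that counted as well above background on each control array. Where the control's own signal was higher, that signal was used. The cutoff of a single probe can lie above this floor, and the bound leaves out the spread between arrays. Of all 41155 probes tested, 2.38% were higher and 3.16% changed in either direction, against 3 of these 7 genes. The median difference of the 7 genes was 1.89 on the log2 scale, against -0.07 over all probes. It was 0.68 with Slfn1, Slfn4, Slfn8 and Slfn9 at their bound and Slfn3, whose bound was under 1, taken as unchanged.

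Slfn1 read 5.91, 5.40 and 5.71 on the POD5 hepatic allografts and 1.28, 2.82 and 2.84 on the controls. In unnormalized processed signal this was 38.1 to 69.3 against 1.40 to 4.68, and the log2 difference was 3.36 ± 0.48 (SE, limma adjusted P = 0.0345). Slfn4 read 5.64, 3.87 and 5.53 on allografts and 2.0, 1.82 and 2.10 on controls, a difference of 3.04 ± 0.51 (SE, limma adjusted P = 0.0471). Allograft replicate 2 had the lowest signal of both genes, and neither gene's groups overlapped. Slfn9 read 5.03, 4.58 and 4.44 on allografts and 3.30, 3.34 and 2.76 on controls, a difference of 1.55 ± 0.25 (SE, limma adjusted P = 0.0439).

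Slfn2 was well above background on every hepatic array, so that its fold change was measured on both sides. It read 10.24, 10.07 and 11.04 on POD5 allografts and 7.58, 8.82 and 8.14 on controls. The groups were 4.83-fold apart without overlap, and the log2 difference of 2.27 ± 0.42 just missed the threshold (SE, limma adjusted P = 0.058). Slfn5 read 10.36, 10.12 and 10.49 on allografts and 8.52, 9.50 and 9.89 on controls. Its groups did not overlap, with a difference of 1.02 ± 0.38 (SE, limma adjusted P = 0.219), and its dimmer probe gave 1.66 ± 0.77 (SE, limma adjusted P = 0.297).

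Slfn8 and Slfn3 were well above background on 2 of 3 POD5 hepatic allografts each and on no control. The difference of Slfn8 was 1.89 ± 0.73 (SE, limma adjusted P = 0.234) and that of Slfn3 1.86 ± 0.72 (SE, limma adjusted P = 0.235), with overlapping groups for both. In all, 5 of the 7 genes did not overlap, where 12.4% of all probes were higher and 31.2% differed in either direction without overlap. The calls were not stable when 1 array was left out in turn. The number of genes passing was 0 without allograft replicate 1 or 3 or control replicate 2 or 3. It was 1 without allograft replicate 2 or control replicate 1. The differences stayed between 2.84 and 3.62 for Slfn1, 2.73 and 3.61 for Slfn4, and 1.36 and 1.67 for Slfn9. The number of genes passing was 6 in 1 fit of all 5 groups, where 15.1% of all probes passed in either direction. It was 0 with the slide as a random block.

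At POD8, Slfn1, Slfn2, Slfn4 and Slfn9 were higher in hepatic allografts than in controls. Slfn2 was 4.81-fold higher, and the bounds were at least 2.73-fold for Slfn1, at least 1.91-fold for Slfn9 and at least 1.25-fold for Slfn4. Of all 41157 probes tested, 3.53% were higher and 4.97% changed in either direction, against 4 of these 7 genes. The median difference of the 7 genes was 2.27 on the log2 scale, against -0.08 over all probes. It was 0.93 with Slfn1, Slfn4, Slfn8 and Slfn9 at their bound and Slfn3, whose bound was under 1, taken as unchanged. These allografts were compared with the same 3 controls as those at POD5.

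The 3 POD8 allografts lay close together for the long forms. Slfn9 read 5.22, 5.32 and 5.26, a difference of 2.13 ± 0.19 from the controls (SE, limma adjusted P = 0.00819). Slfn5 read 10.72, 10.69 and 10.68, all above the 3 controls, and its difference of 1.39 ± 0.36 missed the threshold (SE, limma adjusted P = 0.105). Slfn8 read 5.04, 5.39 and 5.0 on allografts and 2.0, 3.87 and 1.55 on controls, without overlap, with a difference of 2.67 ± 0.63 (SE, limma adjusted P = 0.0859). The spread of the 3 controls was the wider one for these 3 genes, and also for Slfn1, Slfn2 and Slfn3 but not for Slfn4.

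Slfn1 read 5.93, 5.77 and 5.64 on POD8 allografts, a difference of 3.47 ± 0.46 (SE, limma adjusted P = 0.0237). Slfn2 read 10.54, 10.51 and 10.28, a difference of 2.27 ± 0.33 (SE, limma adjusted P = 0.0297). Slfn4 read 5.07, 4.04 and 4.84, a difference of 2.68 ± 0.30 (SE, limma adjusted P = 0.0144). All 3 genes were above all 3 controls. Slfn3 was well above background on 1 of the 3 allografts, with 3.89, 3.65 and 2.69, and its groups overlapped (difference 1.26 ± 0.71, SE, limma adjusted P = 0.369).

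Groups of 6 of the 7 genes did not overlap at POD8, where 12.9% of all probes were higher and 31.4% differed in either direction without overlap. Allograft replicates 1 and 2 and control replicates 1 and 2 shared a slide. Within it the differences were 3.80 for Slfn1, 2.33 for Slfn2, 2.34 for Slfn3, 2.64 for Slfn4, 1.69 for Slfn5, 2.28 for Slfn8 and 1.95 for Slfn9 (n = 2 and 2, no test). With the slide as a random block 4 genes passed, and with the slide as a fixed block, which removes the 2 arrays that were alone on a slide, 0 genes and 0 of all probes did. The number of genes passing was 0 without allograft replicate 1, 1 without replicate 2 or 3, and 3 to 5 without 1 of the controls.

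Between POD5 and POD8 none of the 7 genes passed the test (limma, 1 fit of 5 groups), whereas 0.0293% of all probes did. No slide held hepatic allografts of both times, so time and slide cannot be told apart here. Read from its brightest probe, Slfn9 was the 1 gene with an unadjusted P under 0.05, with 0.58 ± 0.21 higher signal at POD8 (SE, unadjusted P = 0.0152, limma adjusted P = 0.412). Slfn5, Slfn8 and Slfn9, the long forms, were higher on all 3 POD8 arrays than on all 3 POD5 arrays, whereas 9.3% of all probes were higher and 19.7% differed in either direction without overlap. On POD5 replicate 3 Slfn8 was not well above background. The dimmer probe of Slfn5 was also higher at POD8, by 1.25 ± 0.55 (SE, unadjusted P = 0.0437, limma adjusted P = 0.523). Slfn1 (0.11), Slfn2 (-0.01), Slfn3 (-0.61) and Slfn4 (-0.37) overlapped, and their 95% intervals reached from -0.65 to 0.87, from -0.71 to 0.70, from -1.82 to 0.61 and from -1.41 to 0.68. Changes within those intervals were not detectable with 3 arrays a group.

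The log2 difference at POD5 was compared between the organs, and the heart value minus the liver value passed the test for 0 of the 7 Schlafen genes (limma interaction), where 18% of all probes passed. Slfn2 and Slfn5, the genes measured on both sides in both organs, gave -0.93 ± 0.46 and -1.27 ± 0.52 (SE, limma adjusted P = 0.176 and 0.109). The fitted values of the other 5 were also below 0, but they rest on hepatic controls that were not well above background and have no order. Slfn4, Slfn5 and Slfn9 were the genes with an unadjusted limma P under 0.05, and that of Slfn9 was 0.128 after adjustment. The direction depended on the background correction. With normexp correction it turned positive for Slfn1 (0.98), Slfn3 (0.44), Slfn4 (0.19), Slfn8 (0.52) and Slfn9 (0.13), and of these Slfn1 passed the test the other way (adjusted P = 0.00307). With 75th percentile scaling, where the median of all probes was 0.64, it turned positive for Slfn3 (0.43) and Slfn8 (0.09).

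**Figure D3:**
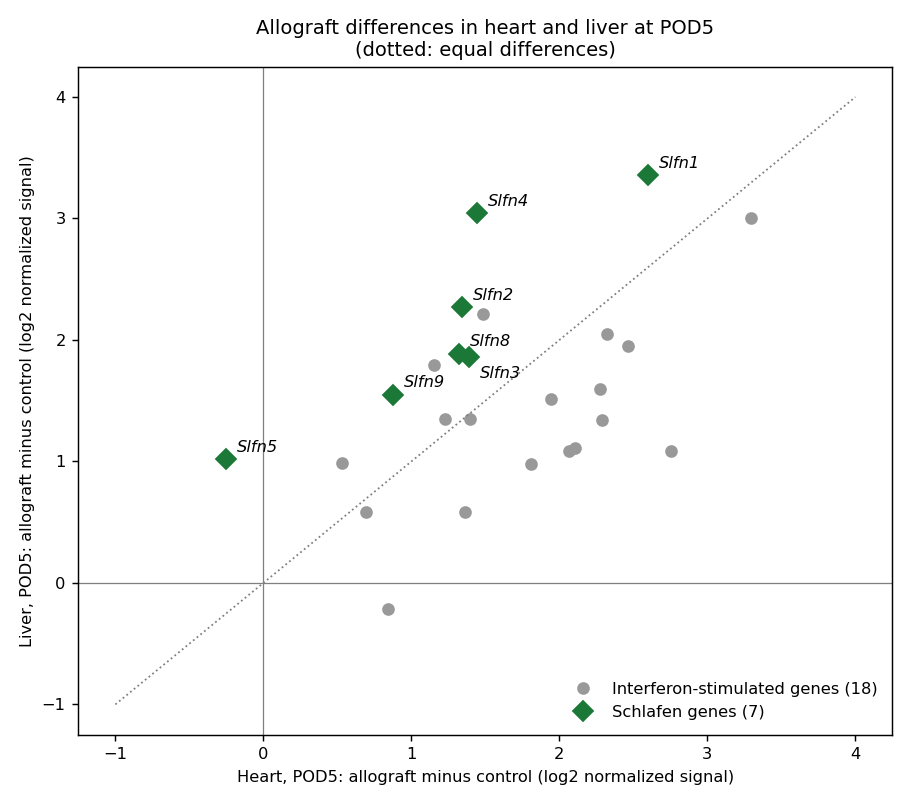
Log2 difference between allografts and controls at POD5 in the heart (horizontal) and in the liver (vertical) for the 7 Schlafen genes (diamonds) and 18 measured interferon-stimulated genes (circles), with a dotted line where both are equal. All 7 Schlafen genes and 4 of the 18 interferon-stimulated genes lie above the line, and 5 of the 7 liver values rest on controls that were not well above background.

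The organs also differed without allografting, with a median log2 difference of 3.60 over the 7 genes, or 2.19 with 5 of them at their bound. All 7 genes had higher signals in cardiac than in hepatic controls (limma), where 27.5% of all probes were higher and 54% differed in either direction. Of the genes measured on both sides, Slfn5 was 14.5-fold (3.86 ± 0.37) and Slfn2 6.05-fold (2.60 ± 0.32) higher in the heart (log2, SE, limma adjusted P = 2.38e-06 and 2.56e-05). The bounds for the others were at least 4.93-fold for Slfn4, 4.56-fold for Slfn9, 3.34-fold for Slfn8, 3.12-fold for Slfn1 and 1.75-fold for Slfn3. After Bonferroni adjustment over all probes 4 of the 7 passed. No slide held both cardiac and hepatic controls, so organ and slide cannot be told apart in this comparison. Before normalization the cardiac controls were also the brightest group of arrays and the hepatic controls the dimmest. The cardiac controls also had higher summed signals of monocyte and macrophage markers (67218 to 91010, against 5306 to 13672 in hepatic controls, over 8 measured genes) and of neutrophil markers (34859 to 55513 against 3384 to 10207, over 8 genes). Markers of Kupffer cells, the resident macrophages of the liver, went the other way (960.6 to 4398.5 against 26459 to 70461, over 5 genes). The summed signals of T cell markers overlapped (519 to 746 against 516 to 618, over 9 genes), but single markers differed in both directions. Mean log2 signals of Cd8a were 5.76 in cardiac and 3.05 in hepatic controls and those of Cd247 5.61 and 2.54, with neither gene well above background in the latter. Those of Cd3e were 5.0 and 7.25 and those of Cd4 4.16 and 5.58, and none of these 4 differences was tested. The part of these cells in the Schlafen levels was not tested.

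Over all 5 groups the order of levels was cardiac allografts, cardiac controls, hepatic allografts and hepatic controls for every gene but Slfn5, in which cardiac controls came first. Of all probes, 28.6% differed between cardiac allografts and controls in the fit of all 5 groups, 44.4% and 42.9% between cardiac controls and hepatic allografts at POD5 and POD8, 34.3% between cardiac allografts and hepatic allografts at POD8, and 15.1% and 11.7% between hepatic allografts at POD5 and POD8 and their controls. Slfn9 differed between neighbours at every step (adjusted P = 0.00717 or less) except between the hepatic allografts at POD8 and POD5 (adjusted P = 0.412). Slfn4 likewise differed at every step (adjusted P = 0.0412 or less) except between the hepatic allografts at POD5 and POD8 (adjusted P = 0.86). For Slfn1 and Slfn2 the cardiac controls and hepatic allografts did not differ (adjusted P = 0.732 and 0.465), while cardiac allografts were higher and hepatic controls lower. For Slfn5 only the step from cardiac allografts to hepatic allografts at POD8 passed (2.21 ± 0.37, SE, adjusted P = 0.000432), for Slfn8 only the step from hepatic allografts at POD5 to hepatic controls (1.89 ± 0.53, SE, adjusted P = 0.0323), and for Slfn3 no neighbouring step passed. No step passed for the dimmer Slfn5 probe, where that from cardiac allografts to hepatic allografts at POD8 was 1.37 ± 0.55 (SE, limma adjusted P = 0.0785). In this fit the cardiac allografts and controls no longer differed past the threshold for Slfn3 (adjusted P = 0.082) and Slfn8 (adjusted P = 0.0803), which passed in the comparison of the 6 cardiac arrays, whereas Slfn4, which had missed it there, passed.

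The members differed from each other in how closely their centred signals moved over the 15 arrays, measured as the root mean square of the difference. Slfn8 and Slfn9, neighbours on the chromosome, were the closest pair with 0.49, followed by Slfn5 with Slfn9 at 0.62 and Slfn2 with Slfn9 at 0.66. Slfn1 and Slfn5 were farthest apart with 1.26. Among 14915 genes, the 3 with the pattern most like Slfn1 were Bcl2a1b, Dram1 and Ly6a (0.32 to 0.38, against a median of 2.08 over all genes), and those most like Slfn2 were Pycard, Panx1 and Cmtm7 (0.21 to 0.25). Those most like Slfn4 were Clec4e, Olr1 and Emb (0.58 to 0.62), of which Clec4e and Olr1 encode lectin-like receptors of myeloid and vascular cells. For Slfn9 they were Ifi211, Slco3a1 and Dapp1 (0.31 to 0.35), for Slfn5 Cttnbp2nl, Fam177a and Timp3 (0.32 to 0.35), for Slfn8 Klra10 and Pou3f1 (0.56 and 0.62) and for Slfn3 Mgat4a, Atp10a and Ecscr (0.57 to 0.58).

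The genes on either side of the Schlafen cluster were set beside it. Of 9 measured genes among the 5 on each side, 0 passed the test in hepatic allografts at either time (limma), with median log2 differences of 0.06 and -0.19. Of all probes, only 3.16% and 4.97% passed there in either direction. An unadjusted P under 0.05 was found for Rad51d and Ap2b1 at POD5 and for Rffl, Unc45b and Ap2b1 at POD8. In the heart 3 rose (Rad51d, which acts in recombination repair, by 0.62 ± 0.17, Nle1 by 1.13 ± 0.19, and 1700020L24Rik by 1.55 ± 0.11) and Rasl10b fell by 1.0 ± 0.28 (SE, n = 3 and 3), with a median of 0.12 over the 9. Among all probes, 32% changed in either direction in the heart. Of the other family genes, Slfn14, a ribosome-associated endoribonuclease, was not well above background on any array. Slfnl1, which lies on another chromosome, was so on 1 hepatic control only. Slfn10-ps had no matched probe.

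**Figure D4:**
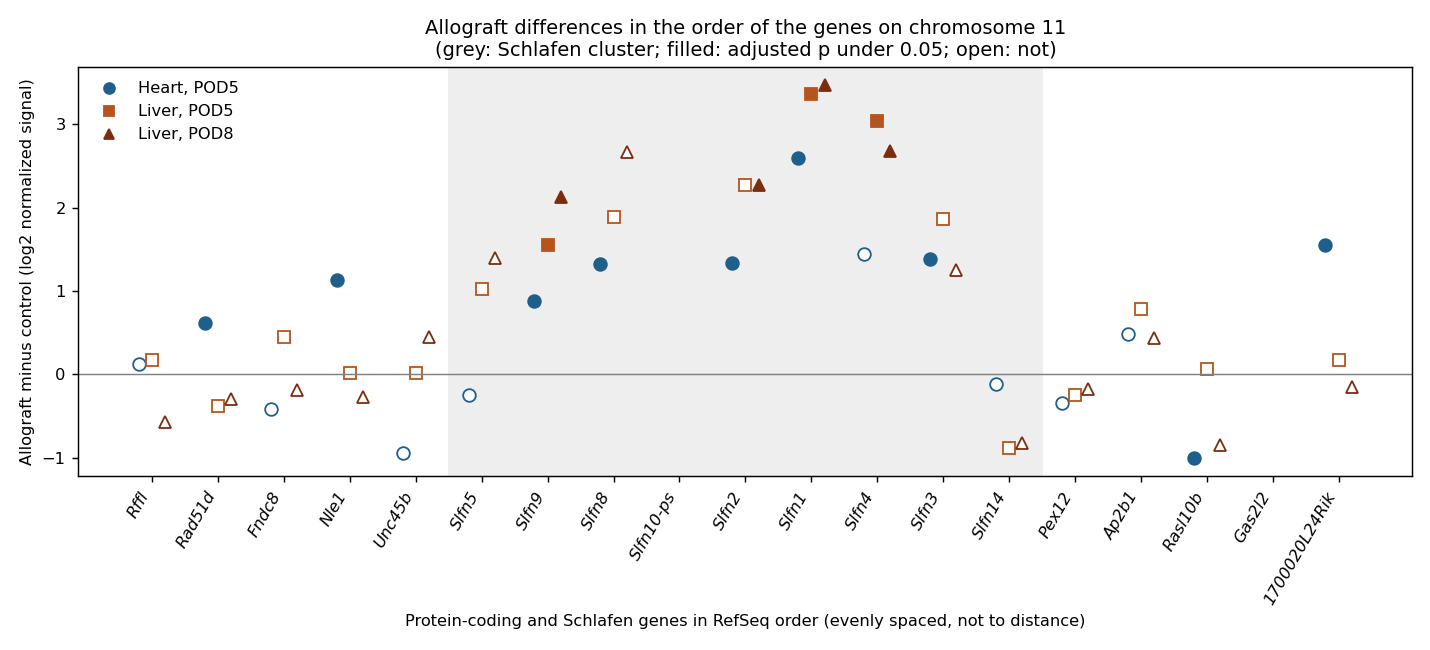
Log2 difference between allografts and controls for the Schlafen genes (grey area) and 5 genes on each side, in RefSeq order along chromosome 11 with even spacing. Hearts at POD5 are circles, livers at POD5 squares and livers at POD8 triangles, and filled symbols had a limma adjusted P under 0.05. Slfn10-ps and Gas2l2 have no value, and no flanking gene was called in the liver, where 3.16% (POD5) and 4.97% (POD8) of all probes were.

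Of the 2 interferon genes in the lists, 1 was higher in the same grafts. Ifng, which encodes interferon gamma, rose by 10.56 ± 0.39 in cardiac allografts, and by 5.79 ± 0.47 and 6.19 ± 0.37 in hepatic allografts at POD5 and POD8 (log2, SE, limma adjusted P = 0.000432, 0.0103 and 0.00299). Socs1, a feedback inhibitor of interferon signalling, rose by 5.82, 4.05 and 4.33. Ifnb1, which encodes interferon beta, was not well above background in any group. Of 16 genes of interferons and their signalling, 11 rose and 1 fell in the heart (Ifngr2, a subunit of the interferon gamma receptor, by 0.70 ± 0.15), and 5 and 6 rose in hepatic allografts at POD5 and POD8. Among all probes, 32%, 3.16% and 4.97% changed in either direction in these comparisons.

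Of 18 measured interferon-stimulated genes, 16 rose in cardiac allografts, and 4 and 11 rose in hepatic allografts at POD5 and POD8, with none lower. The shares of all probes that were higher were 15.6%, 2.38% and 3.53%. The median log2 differences of the interferon-stimulated genes were 1.88, 1.34 and 1.47, beside 1.34, 1.89 and 2.27 for the 7 Schlafen genes. With the Schlafen genes of dim hepatic controls at their bound, and Slfn3 taken as unchanged, the liver medians of the family were 0.68 and 0.93. These were below the medians of the interferon-stimulated genes, of which none rested on a bound. Ifit2, an antiviral protein, differed by 3.29 ± 0.16 in cardiac allografts, and by 3.00 ± 0.58 and 3.13 ± 0.55 in hepatic allografts at POD5 and POD8 (SE, limma adjusted P = 0.00061, 0.063 and 0.0429). Rsad2 in the heart (0.53 ± 0.19, SE, adjusted P = 0.0899) and Oas2 in the liver (-0.22 ± 0.25 at POD5, SE, adjusted P = 0.664) had the smallest differences of the list.

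Quiescence of lymphocytes is the process Slfn2 is known for. Of 13 of its regulators, 3 rose and 1 fell in cardiac allografts, where 32% of all probes changed in either direction. In hepatic allografts 1 rose at POD5 and 2 at POD8, where 3.16% and 4.97% of all probes changed. The medians of the list were -0.05, 0.21 and 0.14. Those named by size included Ccr7, a chemokine receptor of naive lymphocytes (2.43 ± 0.28 in the heart, SE, limma adjusted P = 0.00357), and Klf4, which fell by 1.73 ± 0.26 in the heart (SE, adjusted P = 0.00736). Of 8 genes of transfer RNA cleavage and translation control, 5 rose and 1 fell in the heart, 1 fell in the liver at POD5 and none passed at POD8. Ang, which encodes the transfer RNA-cleaving ribonuclease angiogenin, fell by 1.69 ± 0.31 in the heart and by 1.25 ± 0.16 in the liver at POD5 (SE, limma adjusted P = 0.0127 and 0.0283), and differed by -0.83 ± 0.17 at POD8 (SE, adjusted P = 0.0665).

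Most T cell markers were higher than in controls in every allograft group. Of 9 measured markers, 9 rose in cardiac allografts and 7 in hepatic allografts at each time, with median log2 differences of 4.17, 4.84 and 4.24, and 4.56 and 4.01 in the liver with 2 genes at their bound. Their summed signals were 12235 to 18995 in cardiac allografts against 519 to 746 in controls, 8272 to 13754 and 7200 to 9143 in hepatic allografts at POD5 and POD8 against 516 to 618 in controls, where Cd247 and Cd8a were not well above background. In the liver Cd3e missed the threshold at POD5 and POD8 (0.74 ± 0.29 and 0.71 ± 0.18, SE, limma adjusted P = 0.234 and 0.0933). Cd4 had negative differences there that also missed it (-0.16 ± 0.13 and -0.40 ± 0.10, SE, limma adjusted P = 0.554 and 0.0956). Proliferation genes rose for 4 of 6 in the heart, 2 at POD5 and 1 at POD8. The part of T cells in the Schlafen differences was not tested.

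Other cell types moved less uniformly beside the Schlafen genes. Of 8 monocyte and macrophage markers, 2 rose in each comparison and 1 fell in the heart, with summed signals of 149110 to 182860 in cardiac allografts against 67218 to 91010 in controls, and of 37422 to 40851 and 44214 to 46688 in hepatic allografts against 5306 to 13672. Of 8 neutrophil markers, 1 rose and 2 fell in the heart, 1 fell in the liver at POD5 and none passed at POD8. Of 5 B cell markers none passed in any comparison, and Pax5 was well above background only among cardiac controls. Of 5 Kupffer cell markers, 3 fell in the heart and 1 rose in the liver at POD8, where their summed signals were 100040 to 118500 and 121440 to 149330 in hepatic allografts against 26459 to 70461 in controls. All 5 endothelial markers fell in the heart (summed signals 1473 to 2581 against 5820 to 6646) and none passed in the liver. Of 5 cardiomyocyte markers 2 fell in the heart. In the liver Actc1 rose at POD5 and Tnnt2 fell at POD8, and Ryr2 passed downwards at POD5 with both groups below background. The 5 hepatocyte markers did not pass in the liver (summed signals of 605600 to 732370 in all hepatic groups). The part of any of these cell types in the Schlafen differences was not tested.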

How the data were processed

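RNA from 15 tissue samples had been hybridised by the authors to single-colour Agilent arrays, and the groups were taken from the sample labels. The deposited processed intensity of each spot had been made by the authors with Feature Extraction 10.5.1.1 after local background subtraction and a spatial trend correction, without normalization between arrays. Deposited median intensities of the spots and their backgrounds were used in 1 alternative (normexp with an offset of 50), because a mean spot signal was not used here. From the processed intensity, log2 was taken, 47 to 113 spots per array with an outlier mark were left out (0 were saturated), spots of a probe were averaged and all 15 arrays were quantile normalized. Depth is given as signal over background for each group, and precision is limited by having 3 arrays per group.

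Transcript accessions in the files were matched to RefSeq (GRCm38.p6) for names and gene order. Of 41174 probes, 26690 (64.8%) matched, giving 18217 symbols. A gene was read from its brightest probe over all arrays. A probe was well above background on an array where at least 0.5 of its spots were marked so.

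Each allograft group was compared with its controls on the 6 arrays of both groups with limma 3.58.1 in R 4.3.3 (data.table package 1.17.8), over all probes, with Benjamini-Hochberg adjustment at 0.05. Further contrasts (POD8 against POD5, the heart minus liver difference, the 2 controls, neighbouring group levels) came from 1 fit of 5 groups. The scripts were tested on simulated data: with 200 probes changed by 3 on the log2 scale, 155 were called in the cardiac comparison, 120 in the hepatic POD5 comparison and 131 in the POD8 comparison. Python 3.11.15 with matplotlib 3.10.9 drew the figures. List genes were named by rule as the 2 with the largest and the 1 with the smallest signed difference in each comparison, and genes most alike as the 3 nearest to each Schlafen gene. Some of the genes these rules named are not reported here. Rad51d, Nle1, 1700020L24Rik, Rasl10b, Ap2b1 and the marker genes given singly were chosen after their values were seen. The Schlafen genes and the lists were chosen with earlier results of these data known.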

Additional observations from a re-analysis of the deposited data

How the results depend on the processing

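The number of Schlafen genes passing the test depended on the processing most in the liver. Without normalization between arrays, an alternative chosen after seeing the data, the counts were 1 for hearts, 7 for livers at POD5 and 7 at POD8 (median of all probes -0.46, 1.03 and 0.99), and 6 for the difference between organs (median -1.69). After Bonferroni adjustment, the adjustment of the study's methods, they were 0, 0 and 0, and 4 between the controls. The methods' t-test with Benjamini-Hochberg adjustment gave 0 at POD5 and 1 at POD8, and with Bonferroni adjustment 0 in all 3. The standardized fold change of the study with Bonferroni adjustment gave 0 in the heart, 0 at POD5 and 1 at POD8. The slide as a random block gave 0 at POD5, and the slide as a fixed block, also added later, gave 0 at POD8. A fit of all 5 groups gave 6 at both times and 4 in the heart, where Slfn3 and Slfn8 lost their calls and Slfn4 gained a call. In that fit 15.1% of all probes passed in either direction at POD5, 11.7% at POD8 and 28.6% in the heart. The slide could not be fitted in the heart. For the difference between organs, 75th percentile scaling and normexp each gave 1 (0 as reported). The share of all probes passing is not given here for most of the other alternatives or with 1 array left out. Their counts therefore cannot be set against that share. The cause of these changes was not tested.

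Replicate numbers did not pair the arrays (correlation of deviations between same-numbered arrays -0.12 to 0.09). The replicate block gave 0 genes in the liver at both times and 1 for the difference between organs.

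With 1 array left out in turn, 3 to 6 genes passed in the heart (3 without control replicate 2 or 3, where Slfn8 and Slfn9 lost their calls), 0 to 1 in the liver at POD5, 0 to 5 at POD8, 0 for POD8 against POD5, 0 to 1 for the difference between organs and 7 between the controls. Between POD8 and POD5, Slfn2 turned to 0.028 without normalization and ranged from -0.20 to 0.29 with 1 array left out (0.29 without POD5 replicate 3, 0.08 without POD8 replicate 3), and Slfn1 ranged from -0.028 (without POD5 replicate 2) to 0.23. Slfn5 in the heart ranged from -0.48 to 0.18, the latter without allograft replicate 2. For the difference between organs, the sign turned under normexp to 0.98 (Slfn1), 0.44 (Slfn3), 0.19 (Slfn4), 0.52 (Slfn8) and 0.13 (Slfn9), and under 75th percentile scaling to 0.43 (Slfn3) and 0.095 (Slfn8). No allograft difference in the liver and none between the controls reversed under the alternatives run.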
